A study of Homo sapiens with 12 samples.

Results

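Hs 578T is a triple-negative breast cancer line of mesenchymal character, and the cells described here carried a lentiviral GFP transgene as the control for a sister population that overexpressed NRF2. For 8 h they were kept in a medium with or without cystine (Cyss), the oxidized dimer of cysteine and the form in which cells take that amino acid up from medium. The comparison is of the 3 GFP libraries without Cyss against the 3 GFP libraries with Cyss, 6 of the 12 libraries sequenced, chosen by their labels for cell population and medium and normalized on their own. Both media held methionine, glutamine and serum, and cystine was added back only for the controls, so that the deprived cells kept methionine as a sulfur source. Both groups carried GFP, and whether GFP itself or the transduction alters the response cannot be told apart, because untransduced cells were not analysed here. The study does not state that the replicates of a group were separate cultures, so p-values measure the spread between these libraries, which may be technical.

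Depth and one library in each group need to be known before the results. Genes received 37871221 to 44596870 reads per library with Cyss and 29024499 to 33368795 without, ranges that do not overlap, and the share of reads given to no gene reached at most 16.4%. The first principal component held 44.2% of the variance and separated the media. The second held 19.4% and set replicate 3 without Cyss (10.8) apart from replicates 1 and 2 without Cyss (-5.54 and -6.12), while replicate 1 with Cyss (4.57) lay apart from replicates 2 and 3 with Cyss (-2.22 and -1.52). All 12 mesenchymal and basal B markers were expressed, among them VIM at 157912 to 170582 normalized counts, and none was differentially expressed. Of 12 luminal markers 8 were tested. Their summed level was 7316 to 7510 normalized counts with Cyss and 10030.4 to 10584 without. Most of that sum was XBP1, with means of 5600 with Cyss and 8037 without, a gene counted below with the stress-induced factors. ESR1 (-0.31) and FOXA1 (-0.07) had a negative log2FC, and the others of the 8 a positive one. KRT18 and XBP1 were the 2 DEGs among the 8, and EPCAM, PGR, KRT19 and ESRP1 had at most 9 reads in any library. KRT18 had 1036, 1131 and 992 normalized counts with Cyss and 1228, 1344 and 1569 without (log2FC 0.39 ± 0.0795 SE, adjusted p = 0.0173), and its call was lost at 0.29 without replicate 3 without Cyss. The part of luminal markers in the results below was not tested. Of 8 immune markers, 6 had at most 1 read in any library.

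Cells use cysteine for protein, for glutathione, for coenzyme A, for iron-sulfur clusters and for hydrogen sulfide. Cystine enters through the antiporter formed by SLC7A11 and SLC3A2 and is reduced inside the cell, and cysteine can also be made from methionine through the transsulfuration enzymes CBS and CTH. When an amino acid runs short, uncharged tRNA activates the kinase GCN2, phosphorylation of eIF2 slows general translation, and translation of the transcription factor ATF4 rises. ATF4 pairs with C/EBP proteins on C/EBP-ATF response elements (CARE) of genes for amino acid synthesis, transport and tRNA charging. NRF2, by contrast, drives genes of thiol and electrophile metabolism through antioxidant response elements (ARE).

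Without Cyss, 274 of 17452 genes tested (1.57%) were upregulated DEGs and 93 (0.533%) were downregulated DEGs. A DEG had an adjusted p below 0.1 by edgeR's quasi-likelihood method, adjusted after Benjamini and Hochberg, and a log2FC of over 0.32 in size. A gene was tested when its mean normalized count reached 10 in either medium. The response was skewed to increases in size as well as in number: the median log2FC was 0.57 for upregulated DEGs and -0.39 for downregulated DEGs, 42 DEGs rose by a log2FC of 1 or more, and 5 fell by as much. The median over all genes tested was 0.0015. The 2 groups of 3 libraries overlapped for IL8 alone among the DEGs, which is a description, since DEGs were selected on the difference between these groups. Over all genes tested, the groups did not overlap for 11.4% with higher and 12.5% with lower levels without Cyss. Small changes were common, since 115 upregulated and 73 downregulated DEGs had a log2FC of under 0.5 in size, and 163 upregulated and 26 downregulated DEGs stayed DEGs in all 6 leave-one-out fits, each made without 1 of the libraries. The 2 libraries set apart above bore on the calls. Without replicate 3 without Cyss, 198 of the 274 and 47 of the 93 were still DEGs, and without replicate 1 with Cyss, 216 and 44 were. Replicate 3 was the highest of the libraries without Cyss for 154 of the 274 upregulated DEGs (56.2%), against 34.0% of all genes tested, and replicate 1 was the highest with Cyss for 59 of the 93 downregulated DEGs (63.4%), against 37.7% of all genes tested.

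The largest log2FC of any DEG was that of CHAC1 (chr15:41245160-41248710, hg19), an enzyme that splits glutathione inside the cell. CHAC1 had 577, 553 and 517 normalized counts with Cyss and 2229, 2409 and 2417 without (log2FC 2.10 ± 0.0562 SE, adjusted p = 1.21e-10). The deprived libraries all lay far above the control libraries. DDIT4 (chr10:74033678-74035794), a stress-induced inhibitor of mTORC1, had 718, 757 and 686 normalized counts with Cyss and 2836, 2967 and 2773 without (log2FC 1.99 ± 0.0508 SE, adjusted p = 1.21e-10). SESN2 (chr1:28586029-28609002), a leucine-binding sestrin that restrains the same kinase, had 732, 812 and 770.2 normalized counts with Cyss and 2394, 2551 and 2689 without (log2FC 1.72 ± 0.0565 SE, adjusted p = 7.86e-10). In both genes the 2 media were far apart and the replicates of a medium close together.

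The promoters of upregulated genes were searched for the CARE core TGATGNAA, read on both strands, where N stands for any base. RefSeq promoters on GRCh38.p14, running from 250 bases before to 50 after a start site, were found for 223 of the 367 DEGs. The core was in 11.1% of the promoters of upregulated DEGs (29 of 261, belonging to 27 of 157 genes), in 3.77% of those of downregulated DEGs (4 of 106), in 1.95% of those of tested genes that were not DEGs and in 3.62% of all 35116 promoters in the table. The 27 genes were CHAC1, ASNS, ATF3, CARS, GARS, JDP2, CEBPG, SLC1A4, MARS, ISLR2, HERPUD1, STRA6, SLC1A5, AARS, SLC38A1, TARS, MTHFD1L, RSL24D1, GOT1, SLC3A2, INPP5B, DDR2, KCTD16, C9orf91, BCAT1, NARS and PPFIBP2, so that 6 tRNA synthetases and 4 amino acid transporters were among them. The ARE core TGACNNNGC, which shares no more than its first 3 letters with the CARE core, was in 15.3% of promoters of upregulated DEGs, 17.9% of those of downregulated DEGs (19 of 106) and 14.3% of those of tested genes that were not DEGs. A match describes these letters only and does not show that a factor binds.

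The promoters of 4 genes with the CARE core and 2 with the ARE core are printed from 250 bases before the start site to 10 after it, 5′ to 3′ on the gene's strand, because they belong to changed genes of different roles. The first 4 rose and act in glutathione breakdown, asparagine synthesis, stress-induced transcription and glutamine transport. TXNRD1 and GCLM fell and act in thioredoxin reduction and glutathione synthesis. Capitals mark the matches, and distances count from the start site to the first base of the match. The CHAC1 promoter (chr15:40953221-40953480, plus strand) has its match at -209, in reverse complement. In the ASNS promoter (chr7:97872399-97872658, minus strand) the match is at -68, in ATF3 (chr1:212565157-212565416, plus strand) at -191, and in SLC1A5 (chr19:46784805-46785064, minus strand) at -97, each as spelled above. TXNRD1 (chr12:104215529-104215788, plus strand) has ARE cores at -99 and -8, and GCLM (chr1:93909421-93909680, minus strand) has 1 at -34. ASNS, ATF3 and TXNRD1 have 2 RefSeq promoters each and SLC1A5 has 3. For these genes the first promoter with a match is printed. The other promoter of TXNRD1 has an ARE core at -102.
CHAC1: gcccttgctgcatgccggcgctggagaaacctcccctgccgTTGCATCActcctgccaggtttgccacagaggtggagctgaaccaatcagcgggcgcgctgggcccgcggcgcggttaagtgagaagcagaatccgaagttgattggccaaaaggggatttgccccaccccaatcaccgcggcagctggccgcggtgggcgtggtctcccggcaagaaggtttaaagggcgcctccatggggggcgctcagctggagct
ASNS: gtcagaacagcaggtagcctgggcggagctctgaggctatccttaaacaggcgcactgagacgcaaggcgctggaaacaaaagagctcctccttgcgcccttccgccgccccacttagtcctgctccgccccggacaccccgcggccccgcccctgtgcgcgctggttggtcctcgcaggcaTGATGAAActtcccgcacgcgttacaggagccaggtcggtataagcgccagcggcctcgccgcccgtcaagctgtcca
ATF3: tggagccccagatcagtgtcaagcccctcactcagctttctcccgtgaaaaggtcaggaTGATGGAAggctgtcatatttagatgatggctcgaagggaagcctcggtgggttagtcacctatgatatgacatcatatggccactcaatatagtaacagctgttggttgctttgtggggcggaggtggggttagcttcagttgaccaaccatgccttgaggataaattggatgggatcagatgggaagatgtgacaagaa
SLC1A5: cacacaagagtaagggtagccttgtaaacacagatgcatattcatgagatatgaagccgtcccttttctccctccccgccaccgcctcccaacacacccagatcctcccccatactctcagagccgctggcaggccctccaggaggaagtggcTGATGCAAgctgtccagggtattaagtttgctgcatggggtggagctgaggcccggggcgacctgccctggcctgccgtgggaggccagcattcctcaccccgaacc
TXNRD1: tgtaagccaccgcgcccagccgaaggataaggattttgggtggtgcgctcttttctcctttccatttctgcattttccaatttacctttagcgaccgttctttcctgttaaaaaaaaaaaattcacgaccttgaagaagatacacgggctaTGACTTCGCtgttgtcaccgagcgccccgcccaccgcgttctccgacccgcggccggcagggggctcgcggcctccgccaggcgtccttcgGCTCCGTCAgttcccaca
GCLM: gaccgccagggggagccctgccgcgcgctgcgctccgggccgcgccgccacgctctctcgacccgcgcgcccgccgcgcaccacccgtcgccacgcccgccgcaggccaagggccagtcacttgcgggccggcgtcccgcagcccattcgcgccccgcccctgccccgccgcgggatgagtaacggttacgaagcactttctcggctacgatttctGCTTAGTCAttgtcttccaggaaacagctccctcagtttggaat

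Of 22 tested amino acid transporters, 6 rose and 1 fell, with a median log2FC of 0.13. The transporter of cystine itself was not among them: SLC7A11 had 6251, 5017 and 5200.4 normalized counts with Cyss and 5392, 5076 and 5586 without (log2FC -0.04 ± 0.0691 SE, adjusted p = 0.826), and its 2 groups overlapped. SLC3A2, the heavy chain that brings SLC7A11 and SLC7A5 to the membrane, had 19375, 20999.8 and 19228 normalized counts with Cyss and 27028, 28554 and 28439 without (log2FC 0.50 ± 0.0409 SE, adjusted p = 6.45e-06). SLC7A5, which exchanges glutamine for leucine and other large neutral amino acids, had 37621, 38486 and 36930.5 normalized counts with Cyss and 55496, 56422 and 56505 without (log2FC 0.58 ± 0.0317 SE, adjusted p = 1.13e-07). Both heavy and light chain of that exchanger were higher in all deprived libraries. The neutral amino acid carriers SLC6A9, a glycine transporter (0.84), SLC1A4, an alanine, serine and cysteine exchanger (0.83), SLC1A5, a glutamine exchanger (0.64), and SLC38A1, a sodium-coupled glutamine transporter (0.61), also rose, each in every leave-one-out fit. SLC38A2 (0.25, adjusted p = 0.0055) and the cationic amino acid carrier SLC7A1 (0.19, adjusted p = 0.0197) passed the p threshold but not the fold threshold. The glutamate transporter SLC1A3 was the 1 transporter called down (log2FC -0.37 ± 0.107 SE, adjusted p = 0.0834), and it lost its call whichever library was left out, with a log2FC of -0.31 to -0.41.

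In sulfur metabolism both transsulfuration enzymes rose. CTH, which releases cysteine from cystathionine, had 170.0, 168 and 184 normalized counts with Cyss and 311, 288 and 355 without (log2FC 0.87 ± 0.0923 SE, adjusted p = 8.26e-05). CBS, which makes cystathionine from homocysteine, had 1375, 1378 and 1298 normalized counts with Cyss and 2382, 2427 and 2511 without (log2FC 0.85 ± 0.0447 SE, adjusted p = 6.32e-08). The deprived and control libraries did not overlap for either enzyme. None of 9 methionine cycle genes was a DEG and 8 of them were lower. Of 11 genes for cysteine and sulfide breakdown, GOT1, the cytosolic aspartate aminotransferase, was the only DEG (log2FC 0.51 ± 0.0428 SE, adjusted p = 6.86e-06). Among 21 glutathione genes, the 2 that rose act in breakdown: CHAC1 and OPLAH, which opens 5-oxoproline, the other product of CHAC1, to glutamate (179, 178 and 180.4 normalized counts with Cyss and 249, 245 and 239 without; log2FC 0.45 ± 0.0785 SE, adjusted p = 0.00597). Both that fell act in synthesis and reduction, namely GCLM, the modifier of glutamate-cysteine ligase (log2FC -0.39 ± 0.0759 SE, adjusted p = 0.0126), and GSR, glutathione reductase (log2FC -0.48 ± 0.0509 SE, adjusted p = 8.12e-05). GCLM had 4655, 3652 and 3766 normalized counts with Cyss and 3006, 2973 and 3239 without, with replicate 1 with Cyss well above the others, and without that library its log2FC was -0.27 and it was not a DEG. The catalytic subunit GCLC was at -0.16 (adjusted p = 0.126), and none of 5 glutathione peroxidases was a DEG. CHAC2, the paralog of CHAC1, was at -0.35 (adjusted p = 0.116) and was not a DEG.

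All 3 enzymes of serine synthesis rose. PSAT1, the aminotransferase of the pathway, had 4450.1, 4379.8 and 4254 normalized counts with Cyss and 9584, 9665 and 9553 without (log2FC 1.14 ± 0.0357 SE, adjusted p = 5.49e-10), PHGDH, its first enzyme, rose with a log2FC of 0.74, and PSPH, its last, with 0.67. Replicates were close in PSAT1, whose 3 deprived libraries lay within 9553 to 9665. Of 17 folate genes, 4 rose and none fell, and all 4 encode mitochondrial enzymes: MTHFD2, a methylene-tetrahydrofolate dehydrogenase, at 4503, 4230.5 and 4227 normalized counts with Cyss and 8639, 8865 and 9317 without (log2FC 1.05 ± 0.0422 SE, adjusted p = 5.61e-09), ALDH1L2 (0.70), MTHFD1L (0.58) and SHMT2 (0.57). Other mitochondrial genes of this list had a negative log2FC and were not DEGs: MTHFD2L (-0.16), MTFMT (-0.03), SLC25A32 (-0.10) and SFXN1 (-0.19). The median over all 17 folate genes was -0.02. SHMT2 overlaps the upregulated NDUFA4L2 (1.08) on the opposite strand, and because reads were counted without regard to strand their shares are uncertain. NNMT, which methylates nicotinamide with S-adenosylmethionine, also rose (log2FC 0.58 ± 0.0462 SE, adjusted p = 4.57e-06).

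Genes for asparagine and alanine synthesis rose. ASNS, asparagine synthetase, had 3253, 3279.5 and 3286 normalized counts with Cyss and 8301, 8360.5 and 8738 without (log2FC 1.37 ± 0.0374 SE, adjusted p = 1.21e-10). GPT2, the mitochondrial alanine aminotransferase, had 748, 777 and 749 normalized counts with Cyss and 1735, 1723 and 1826 without (log2FC 1.22 ± 0.0486 SE, adjusted p = 5.61e-09). Neither gene's groups overlapped or came near to it. Of 18 genes for asparagine, glutamine, proline and arginine, these 2 and the proline enzyme PYCR1 were upregulated, PYCR1 (log2FC 0.33 ± 0.0516 SE, adjusted p = 0.00273) being called in 2 of the 6 leave-one-out fits and missing the fold threshold at 0.30 without replicate 1 with Cyss, 0.30 without replicate 3 with Cyss, 0.31 without replicate 2 without Cyss and 0.31 without replicate 3 without Cyss. PCK2, the mitochondrial phosphoenolpyruvate carboxykinase, had 687, 784 and 739 normalized counts with Cyss and 2030.4, 2089.5 and 1984 without (log2FC 1.46 ± 0.0548 SE, adjusted p = 3.4e-09), and BCAT1, which transaminates branched-chain amino acids, rose with a log2FC of 0.37.

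The enzymes that load amino acids onto tRNA were listed by compartment, with GARS and KARS, whose single genes serve both compartments, counted as cytosolic. Of 21 cytosolic aminoacyl-tRNA synthetases, 10 rose, none fell and 20 had a positive log2FC, with a median of 0.31, whereas none of 17 mitochondrial ones was a DEG and their median was -0.01. CARS, which loads cysteine, had 3225, 3298 and 3129.9 normalized counts with Cyss and 5722, 5996 and 6186 without (log2FC 0.89 ± 0.0416 SE, adjusted p = 2.77e-08). GARS, which loads glycine, had 11085, 11382 and 11492 normalized counts with Cyss and 20549, 20478 and 21363 without (log2FC 0.88 ± 0.0347 SE, adjusted p = 5.61e-09). These 2 were the largest increases of the family. MARS (methionine, 0.78), AARS (alanine, 0.63), WARS (tryptophan, 0.63), TARS (threonine, 0.59), SARS (serine, 0.58), YARS (tyrosine, 0.55), EPRS (glutamate and proline, 0.52) and NARS (asparagine, 0.36) followed. All 10 kept their call whichever library was left out. MARS overlaps DDIT3 on the opposite strand, so that the share of each in their common reads is uncertain. XPOT, which exports tRNA from the nucleus (0.38), EIF2S2, the beta subunit of eIF2 (0.55), and EIF1, a factor of start codon choice (0.36), rose too, the latter 2 being the only DEGs among 30 translation factors.

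**Figure D1:**
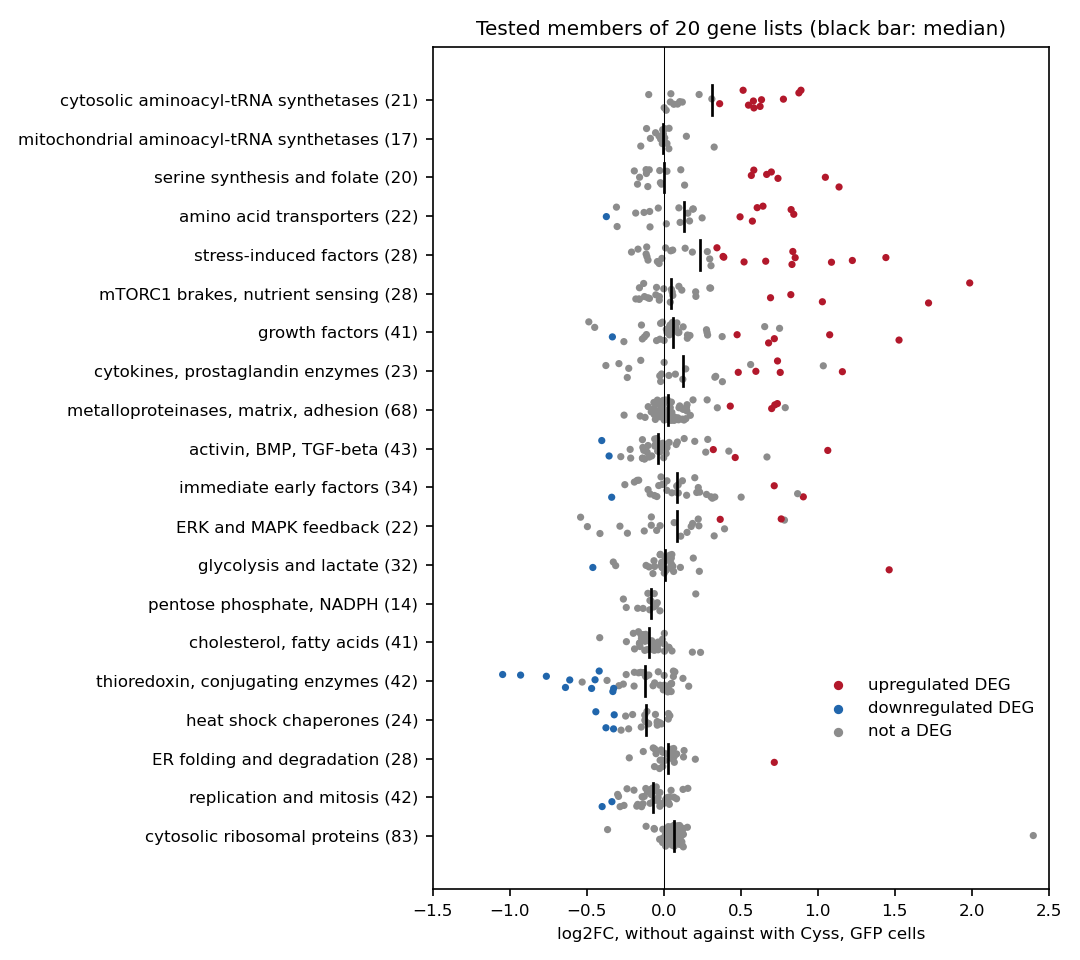
Each point is the log2FC without against with Cyss (x) of 1 tested member of the gene list named at the left, with the number tested in parentheses, upregulated DEGs in red, downregulated DEGs in blue, other genes in grey and the list median as a black bar. The cytosolic tRNA synthetases have the highest median of the lists drawn, 0.31, and 1 gene that was not a DEG is drawn at the right edge.

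Central carbon, lipid and redox metabolism outside these pathways had few DEGs, and those of thiol reduction fell. None of 14 core glycolytic enzymes, none of 14 pentose phosphate and NADPH enzymes and none of 41 genes of cholesterol and fatty acid synthesis was a DEG. Of the latter 2 lists, 13 of 14 and 33 of 41 members had a negative log2FC, with medians of -0.09 in each, against 8619 of all 17452 genes tested. Single members passed the p threshold without reaching the fold threshold, such as transketolase (TKT, -0.26, adjusted p = 0.00218) and malic enzyme (ME1, -0.24, adjusted p = 0.0159). VLDLR, a receptor for triglyceride-rich lipoproteins, rose by contrast, with 262, 226 and 253 normalized counts with Cyss and 669, 640.5 and 699 without (log2FC 1.44 ± 0.0719 SE, adjusted p = 4.45e-08). Of 42 thioredoxin, peroxiredoxin and conjugating enzymes, 10 fell and none rose. TXNRD1, the cytosolic thioredoxin reductase, had 12859, 12499 and 12658 normalized counts with Cyss and 7792, 8103 and 8996 without (log2FC -0.61 ± 0.0479 SE, adjusted p = 3.84e-06). NQO1, a quinone reductase, had 17448, 17914 and 17381 normalized counts with Cyss and 13279, 13359 and 12789.7 without (log2FC -0.42 ± 0.0344 SE, adjusted p = 5.84e-06). Neither gene's media overlapped. TRIM16L had 1171, 1153 and 1167 normalized counts with Cyss and 673, 609 and 548 without (log2FC -0.93 ± 0.0664 SE, adjusted p = 1.47e-06), but it and TRIM16 (-0.45), like AKR1B10 (-0.76) and AKR1B15 (-1.05), are near copies between which reads can be divided wrongly, and AKR1B15 lost its call whichever library was left out, with a log2FC of -0.97 to -1.10.

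Genes of iron and metal handling went both ways. TFRC, the transferrin receptor that imports iron, had 27371, 26901 and 27605 normalized counts with Cyss and 34342, 34814 and 37592 without (log2FC 0.38 ± 0.0384 SE, adjusted p = 4.88e-05). HMOX1, which opens heme, rose (log2FC 0.44 ± 0.0509 SE, adjusted p = 0.000209), and ALAS1, which starts heme synthesis, fell, with 2055, 2081 and 2102 normalized counts with Cyss and 1681, 1622 and 1625 without (log2FC -0.34 ± 0.0413 SE, adjusted p = 0.000299). The 2 media did not overlap in any of these 3 genes. None of 10 tested genes for ferroptosis defence and lipid peroxidation was a DEG, GPX4 standing at 0.05 (adjusted p = 0.698). Of 18 metallothioneins and zinc transporters, MT1X (log2FC 0.47 ± 0.0848 SE, adjusted p = 0.00796) and MT2A (log2FC 0.39 ± 0.0971 SE, adjusted p = 0.0476) rose, both close to their pseudogenes in sequence. MT2A had 5918, 6115 and 5935 normalized counts with Cyss and 6279.8, 8027 and 9267 without, and it stayed a DEG only without replicate 1 in either medium, at 0.38 and 0.53.

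Signalling genes that rose included brakes on growth and stress-induced transcription factors. Of 28 mTORC1 brakes and nutrient sensors, 5 rose and none fell: DDIT4 and SESN2 as given above, TRIB3, a pseudokinase that binds AKT (664, 645 and 646 normalized counts with Cyss and 1297, 1291 and 1404 without; log2FC 1.03 ± 0.0534 SE, adjusted p = 6.09e-08), TSC22D3 (0.82) and EIF4EBP1, the inhibitor of the cap-binding factor eIF4E (0.69). All 5 were DEGs in every leave-one-out fit. TSC22D3 is counted only because the list held it, and an action of it on mTORC1 was not tested. Of 28 stress-induced transcription factors and feedback genes, 11 rose and none fell, with a median log2FC of 0.23. VLDLR, given above, is counted among them, and the others were ATF3 (119, 90.6 and 86.5 normalized counts with Cyss and 193, 243 and 256 without; log2FC 1.22 ± 0.139 SE, adjusted p = 0.000157), NUPR1 (1.09), JDP2 (0.85), ATF4 (0.84), CEBPG, a dimer partner of ATF4 (0.83), DDIT3 (0.66), XBP1 (0.52), PPP1R15A, the eIF2 phosphatase subunit (0.39), MAFF (0.38) and CEBPB (0.35). Without replicate 3 without Cyss, 8 of the 11 were still DEGs. The MAFF call was lost at 0.38 without replicate 1 with Cyss, 0.41 without replicate 2 with Cyss, 0.37 without replicate 3 with Cyss, 0.37 without replicate 2 without Cyss and 0.26 without replicate 3 without Cyss, that of CEBPB at 0.32 without replicate 2 with Cyss and 0.29 without replicate 3 without Cyss and that of PPP1R15A at 0.30 without replicate 3 without Cyss. NFE2L2, which encodes NRF2, was higher by less than the fold threshold (0.28, adjusted p = 0.000764).

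Chaperones of the endoplasmic reticulum and of the cytosol were described separately. In the former group 1 of 28 genes was a DEG, HERPUD1, a membrane protein of the degradation pathway, at 1627, 1665 and 1673 normalized counts with Cyss and 2643, 2739 and 2786 without (log2FC 0.72 ± 0.0413 SE, adjusted p = 1.71e-07), while the chaperone HSPA5 was at 0.20 (adjusted p = 0.00239), under the fold threshold. In the latter, 4 of 24 fell, none rose and 21 had a negative log2FC, with a median of -0.11. HSPA1A (2740.4, 2631 and 2386 normalized counts with Cyss and 2024, 1977 and 1710.2 without; log2FC -0.44 ± 0.0654 SE, adjusted p = 0.00174) and its near-identical neighbour HSPA1B (-0.38) fell whichever library was left out, though reads cannot be divided between them with confidence. HSPB8 (log2FC -0.33 ± 0.0612 SE, adjusted p = 0.00976) and CHORDC1 (log2FC -0.32 ± 0.0746 SE, adjusted p = 0.0343) were called in 3 of the 6 leave-one-out fits. The HSPB8 call was lost at -0.31 without replicate 1 with Cyss, -0.30 without replicate 2 with Cyss and -0.30 without replicate 3 without Cyss. The CHORDC1 call was lost at -0.21 without replicate 1 with Cyss, -0.31 without replicate 1 without Cyss and -0.31 without replicate 2 without Cyss.

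Levels of immediate early and ERK-dependent genes varied between the deprived libraries. EGR1, an immediate early transcription factor, had 178, 162 and 205 normalized counts with Cyss and 249, 291 and 479.9 without (log2FC 0.91 ± 0.194 SE, adjusted p = 0.0221), with replicate 3 highest, and it was not a DEG without replicate 2 with Cyss (0.83, adjusted p = 0.1005). ERRFI1, a feedback inhibitor of the EGF receptor, had 1698, 1559 and 1746 normalized counts with Cyss and 2338, 2578 and 3571 without (log2FC 0.76 ± 0.116 SE, adjusted p = 0.00216), and without replicate 3 it was at 0.56. The ERK phosphatase DUSP6 had 914, 856 and 797 normalized counts with Cyss and 836, 1148 and 2447 without and was not a DEG (log2FC 0.78 ± 0.273 SE, adjusted p = 0.147), its groups overlapping because replicate 1 without Cyss lay among the controls. KLF4, a zinc finger factor of growth arrest and differentiation, was more even, with 812, 817 and 789 normalized counts with Cyss and 1330.1, 1377 and 1271 without (log2FC 0.72 ± 0.0508 SE, adjusted p = 1.39e-06). In counts, 2 of 34 immediate early factors rose and 1, IER5L, fell (-0.34, the call being lost at -0.32 without replicate 3 with Cyss and -0.30 without replicate 3 without Cyss), and 2 of 22 ERK and MAPK feedback genes rose, ERRFI1 and ETV5 (0.37, or 0.28 and no call without replicate 3 without Cyss). None of the 7 AP-1 subunits listed here and none of 19 dual-specificity phosphatases was a DEG. The related factors ATF3 and JDP2, which rose, were counted with the stress-induced factors above.

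Among genes of cell death and the cell cycle few passed. PMAIP1 (NOXA), a BH3-only protein, had 1094, 914 and 909.7 normalized counts with Cyss and 1506, 1749.6 and 2139.8 without (log2FC 0.89 ± 0.107 SE, adjusted p = 0.000278), higher in every deprived library, and it was the only DEG of 25 cell death genes. GADD45A (0.55) and GADD45B (0.40), growth arrest genes induced by stress, were the DEGs of 23 arrest and cell cycle entry genes, and CDKN1A was not one. It had 1314, 1354 and 1344 normalized counts with Cyss and 1416, 1622 and 2451 without (log2FC 0.45 ± 0.142 SE, adjusted p = 0.114). Of 42 replication and mitosis genes, 31 had a negative log2FC and 2 fell, both with roles in starting replication: ORC1, a subunit of the origin recognition complex, at 918, 1005 and 989.7 normalized counts with Cyss and 769.5, 768 and 669.6 without (log2FC -0.40 ± 0.0645 SE, adjusted p = 0.00332), and MCM10 (log2FC -0.34 ± 0.0486 SE, adjusted p = 0.00139), which was at -0.31 and not called without replicate 3 without Cyss. CDC25A, the phosphatase that activates cyclin-dependent kinases at S phase entry, fell as well (log2FC -0.38 ± 0.0578 SE, adjusted p = 0.00204). In bulk RNA fewer cells in a phase and less RNA per cell cannot be told apart.

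A few secreted hormones and growth factors rose, ADM2 and IGFBP1 the most. ADM2 (intermedin), a vasodilator peptide, had 255, 259 and 236 normalized counts with Cyss and 714, 665 and 787 without (log2FC 1.53 ± 0.0762 SE, adjusted p = 4.45e-08). VEGFA, the main factor of vessel growth, had 5612, 5666 and 5459 normalized counts with Cyss and 8076, 8713 and 10748 without (log2FC 0.72 ± 0.0782 SE, adjusted p = 0.000108). STC2, stanniocalcin 2, a glycoprotein hormone, had 27688, 27601 and 27312 normalized counts with Cyss and 37173, 39198 and 38523 without (log2FC 0.48 ± 0.033 SE, adjusted p = 1.19e-06). For all 3 the lowest deprived library exceeded the highest control library. IGFBP1, which binds insulin-like growth factors (log2FC 1.08 ± 0.23 SE, adjusted p = 0.0217), and PLAT, the tissue plasminogen activator (log2FC 0.68 ± 0.13 SE, adjusted p = 0.0111), rose with more spread, PLAT having 2892, 2984 and 2876 normalized counts with Cyss and 3718, 4191 and 6130.3 without. Without replicate 3 without Cyss they were at 0.80 and 0.44, both still DEGs. These were 5 of 41 growth factors and stress-induced secreted proteins, none of 6 EGF family ligands being a DEG, and ANGPT1, an angiopoietin, was the 1 that fell (log2FC -0.33 ± 0.0574 SE, adjusted p = 0.00526), or -0.25 with no call without replicate 1 with Cyss.

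**Figure D2:**
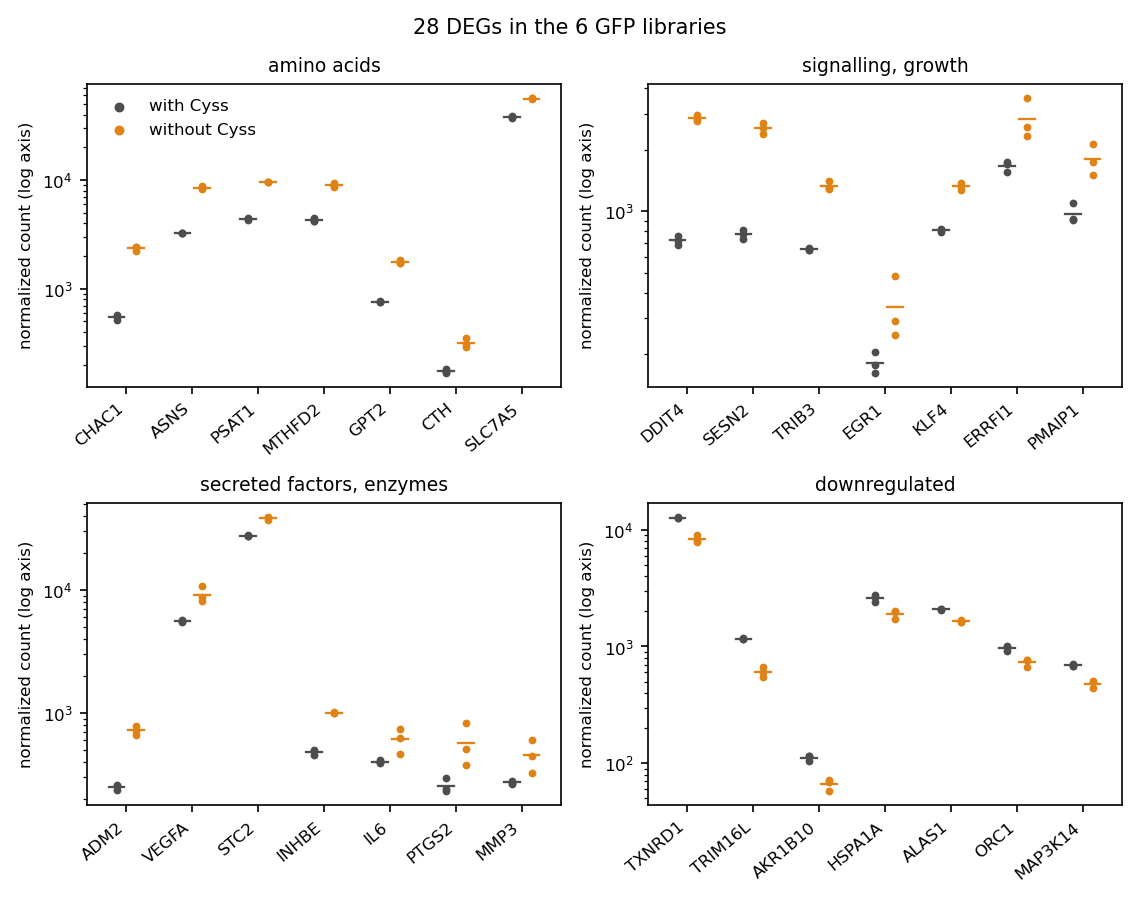
Normalized counts (y, log axis) of 28 DEGs in each library, with Cyss in grey and without Cyss in orange, a point per library and a bar at the group mean. In the amino acid panel the 3 points of a group nearly coincide, whereas those of EGR1, ERRFI1, PTGS2 and MMP3 without Cyss are spread, for example 376 to 831 for PTGS2.

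Those cytokine and prostaglandin genes that rose had a wide spread between deprived libraries. PTGS2 (cyclooxygenase 2) had 297, 242 and 231 normalized counts with Cyss and 376, 514 and 831 without (log2FC 1.16 ± 0.218 SE, adjusted p = 0.0099). IL1B had 220.1, 207 and 234 normalized counts with Cyss and 322, 361 and 434 without (log2FC 0.76 ± 0.105 SE, adjusted p = 0.00096). IL6 had 394, 415 and 400.0 normalized counts with Cyss and 467, 631 and 741 without (log2FC 0.60 ± 0.124 SE, adjusted p = 0.0183). All 3 were DEGs whichever library was left out, and without replicate 3 without Cyss, the highest library in each, their log2FC was 0.79, 0.63 and 0.44. IL8 had 1146, 995 and 1090.1 normalized counts with Cyss and 1049, 1869 and 2485 without, so that its lowest deprived library lay among the controls, and its call (log2FC 0.74 ± 0.208 SE, adjusted p = 0.0775) held in 1 of the 6 leave-one-out fits, the one without replicate 1 without Cyss (1.02). TSLP, an epithelial cytokine, was called (log2FC 0.48 ± 0.11 SE, adjusted p = 0.0319) in 3 of these 6, not without replicate 2 (0.45) or 3 (0.41) with Cyss or replicate 2 without Cyss (0.45). These were 5 of 23 tested cytokines, chemokines and prostaglandin enzymes, with a median log2FC of 0.12, and none fell. Of 22 NF-kappaB subunits and feedback genes none rose and TNIP3, which binds the inhibitor A20, fell (206, 184 and 193 normalized counts with Cyss and 132, 123 and 119 without; log2FC -0.64 ± 0.0966 SE, adjusted p = 0.0021). MAP3K14, the NF-kappaB-inducing kinase (log2FC -0.52 ± 0.0625 SE, adjusted p = 0.000286), and MALT1, a paracaspase that activates NF-kappaB (log2FC -0.37 ± 0.0403 SE, adjusted p = 0.000119), fell too, in every leave-one-out fit. Within the list of 22, NFKBIZ was higher (0.315, adjusted p = 0.00555) and NFKBIE lower (-0.20, adjusted p = 0.092). Both passed the p threshold but not the fold threshold, which NFKBIZ missed narrowly.

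Of 68 listed genes of matrix and adhesion, the DEGs were all proteases. Among 20 proteases and inhibitors 4 rose and none fell, while none of 26 matrix genes and none of 22 integrins and laminins was a DEG. MMP3 (stromelysin 1) had 282, 272 and 265 normalized counts with Cyss and 326, 448 and 599 without (log2FC 0.74 ± 0.159 SE, adjusted p = 0.0229). MMP13 (collagenase 3) had 39.7, 37.3 and 38.1 normalized counts with Cyss and 66.1, 65.0 and 58.5 without (log2FC 0.72 ± 0.15 SE, adjusted p = 0.0183). Both were higher in all deprived libraries. MMP1 (log2FC 0.70 ± 0.182 SE, adjusted p = 0.0559) lost its call without replicate 1 (0.68) or replicate 2 (0.65) with Cyss, and ADAMTS6 (log2FC 0.43 ± 0.11 SE, adjusted p = 0.0524) lost it without replicates 2 (0.39) or 3 (0.45) with Cyss and without replicate 3 without Cyss (0.24). The 3 MMP genes lie together on chromosome 11, MMP1 at 102660132-102668891, MMP3 at 102706532-102714340 and MMP13 at 102813724-102826461 (hg19).

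In the TGF-beta superfamily the inhibin beta chains moved in opposite directions. INHBE, whose product forms activin E, had 491, 497 and 456 normalized counts with Cyss and 1008, 1002 and 1014 without (log2FC 1.07 ± 0.0554 SE, adjusted p = 6.09e-08). INHBB, the chain of activin B, had 1275, 1231 and 1302 normalized counts with Cyss and 1054, 990.2 and 832 without (log2FC -0.40 ± 0.0721 SE, adjusted p = 0.007). The deprived libraries of INHBE lay within 1002 to 1014, whereas INHBB was at -0.31 and not a DEG without replicate 3 without Cyss. FST (follistatin), which binds activins, rose (log2FC 0.46 ± 0.0833 SE, adjusted p = 0.00718), the coreceptor TGFBR3 fell (log2FC -0.36 ± 0.0733 SE, adjusted p = 0.0177, the call being lost at -0.32 without replicate 1 with Cyss and -0.31 without replicate 2 without Cyss), and INHBA was below the fold threshold (0.27, adjusted p = 0.0426). Outside the list, the activin and nodal receptor ACVR1C had 189.9, 141 and 154 normalized counts with Cyss and 118, 109 and 101 without (log2FC -0.55 ± 0.13 SE, adjusted p = 0.0366), its call being lost at -0.42 without replicate 1 with Cyss, -0.55 without replicate 2 without Cyss and -0.49 without replicate 3 without Cyss. LDLRAD4, an inhibitor of TGF-beta signalling named after its values were seen, fell too (log2FC -0.43 ± 0.102 SE, adjusted p = 0.0377), its call being lost at -0.38 without replicate 2 without Cyss and -0.34 without replicate 3 without Cyss. Of the list itself, 3 of 43 genes rose and 2 fell, the third increase being HEY1 (0.32), which was called in 1 of the 6 leave-one-out fits, without replicate 1 with Cyss (0.42).

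Cell surface and nuclear genes outside these lists also appeared among the largest changes. ULBP1, a ligand of the NKG2D receptor of natural killer cells, had 107, 92.2 and 94.9 normalized counts with Cyss and 325, 286 and 251 without (log2FC 1.56 ± 0.114 SE, adjusted p = 1.86e-06). MKX, a homeobox factor of tendon, had 46.3, 24.6 and 39.1 normalized counts with Cyss and 103, 93.2 and 81.9 without (log2FC 1.36 ± 0.197 SE, adjusted p = 0.00139). In neither did the media overlap. KCNG1, a modifier subunit of voltage-gated potassium channels, rose (log2FC 0.82 ± 0.0803 SE, adjusted p = 3.75e-05), DDR2, a collagen receptor kinase, rose (12628, 12334 and 12541 normalized counts with Cyss and 17306, 16822 and 17625 without; log2FC 0.46 ± 0.034 SE, adjusted p = 1.86e-06), and JHDM1D, a histone demethylase, rose (log2FC 0.76 ± 0.0722 SE, adjusted p = 2.57e-05) together with its divergent neighbour JHDM1D-AS1 (log2FC 0.67 ± 0.133 SE, adjusted p = 0.0143). On the falling side, ZSCAN31, a zinc finger protein (675, 680.1 and 651 normalized counts with Cyss and 501, 439 and 354 without; log2FC -0.63 ± 0.0941 SE, adjusted p = 0.00187), DYNC1I1, a dynein intermediate chain (log2FC -0.56 ± 0.102 SE, adjusted p = 0.00866), and MRGPRF, an orphan receptor (log2FC -0.46 ± 0.069 SE, adjusted p = 0.00196), were called whichever library was left out. Beyond amino acid carriers, 3 of the 202 tested solute carriers rose, among them SLC16A6 (0.69) and SLC27A1 (0.34), and 3 fell: SLC5A3 (log2FC -0.35 ± 0.0499 SE, adjusted p = 0.0013) and SLC2A13 (log2FC -0.46 ± 0.115 SE, adjusted p = 0.0478), which both import myo-inositol, and the vesicular monoamine transporter SLC18A2 (log2FC -0.43 ± 0.12 SE, adjusted p = 0.0723). SLC5A3 was not a DEG without replicate 1 with Cyss (-0.30) or replicate 2 without Cyss (-0.31), SLC2A13 was called in 3 of the 6 leave-one-out fits and lost at -0.35 without replicate 1 with Cyss, -0.44 without replicate 1 without Cyss and -0.46 without replicate 2 without Cyss, and SLC18A2 also in 3 and lost at -0.28 without replicate 1 with Cyss, -0.41 without replicate 2 without Cyss and -0.41 without replicate 3 without Cyss. SLC16A6 was lost at 0.73 without replicate 1 with Cyss, 0.70 without replicate 2 with Cyss, 0.65 without replicate 3 with Cyss and 0.36 without replicate 3 without Cyss, and SLC27A1 at 0.26 without replicate 2 without Cyss.

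Among 3191 tested genes with clone, LINC or antisense names, 52 rose (1.63%, against 1.57% of all genes tested) and 11 fell (0.345%, against 0.533%), with a median log2FC of 0.04. RP11-443P15.2 showed the largest decrease of any DEG, with 139, 129 and 144 normalized counts with Cyss and 54.4, 47.9 and 38.6 without (log2FC -1.54 ± 0.139 SE, adjusted p = 1.62e-05). LINC00900 had 156, 157 and 157 normalized counts with Cyss and 311, 315 and 275 without (log2FC 0.94 ± 0.0846 SE, adjusted p = 1.6e-05), RP11-390P2.4 had 169, 193 and 197 normalized counts with Cyss and 336, 427 and 432 without (log2FC 1.09 ± 0.105 SE, adjusted p = 3.12e-05), and LINC00662 rose with a log2FC of 0.62. The media did not overlap for any of these 4. RP11-875O11.3 (log2FC 1.40 ± 0.256 SE, adjusted p = 0.00855), KB-1836B5.1 (log2FC 1.11 ± 0.235 SE, adjusted p = 0.0202), RP11-326I11.3 (log2FC 1.08 ± 0.192 SE, adjusted p = 0.00639), AC137932.5 (log2FC 1.08 ± 0.177 SE, adjusted p = 0.00364) and RP11-293M10.6 (log2FC 0.83 ± 0.179 SE, adjusted p = 0.0232) rose from means of 15.9 to 32.9 normalized counts, each in every leave-one-out fit. SLC7A11-AS1, which overlaps SLC7A11 on the opposite strand, had 56.7, 55.6 and 69.8 normalized counts with Cyss and 92.7, 88.3 and 99.5 without (log2FC 0.63 ± 0.138 SE, adjusted p = 0.0252), while SLC7A11 was not a DEG. Reads were counted without strand, so those of the 2 cannot be told apart, and of the 311 DEGs with an annotated position, 116 overlap a gene on the opposite strand. None of 32 snoRNA host and translation-sensitive noncoding RNAs was a DEG, and NEAT1, the RNA of paraspeckles, was under the fold threshold (0.30, adjusted p = 0.0162).

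Pseudogenes formed a further group. Of the upregulated DEGs, 21 were pseudogenes by annotation. Among 32 tested pseudogenes named for 11 upregulated parents, 15 were upregulated DEGs, 26 had a positive log2FC and the median was 0.59, whereas among 988 named for 589 parents that were not DEGs, 2 rose, 3 fell and the median was 0.04. PSAT1P3 had 383, 382 and 370.2 normalized counts with Cyss and 823, 877 and 881 without and a log2FC of 1.18, beside 1.14 for PSAT1. MTHFD2P7 was at 1.11 beside 1.05 for MTHFD2, ATF4P4 at 0.74 beside 0.84 for ATF4, EIF2S2P4 at 0.53 beside 0.55 for EIF2S2 and XPOTP1 at 0.42 beside 0.38 for XPOT. Parent and pseudogene are nearly identical, and reads of the parent assigned to the copy cannot be told apart from transcription of the copy.

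Whole families stayed without a DEG. This held for 83 cytosolic and 75 mitochondrial ribosomal proteins, 46 proteasome subunits, 13 proteins encoded by mitochondrial DNA, 24 histones, 30 ABC transporters, 25 interferon-stimulated genes and 20 YAP and SRF targets. The cytosolic ribosomal proteins were shifted slightly upward together, 75 of 83 having a positive log2FC with a median of 0.07. The median over all genes tested was 0.0015. Of the 13 mitochondrially encoded genes, 11 had a positive log2FC, also with a median of 0.07, but the media overlapped for all of them except MT-CYB. For MT-ND4, replicate 3 with Cyss (143036 normalized counts) lay within the range without Cyss (138176 to 149473).

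In cells overexpressing NRF2 the same 8 h without Cyss gave most of these genes a log2FC of the same sign. Of the 272 upregulated DEGs tested there, 249 had a positive log2FC, 185 were upregulated DEGs and none was a downregulated DEG, and of the 93 downregulated DEGs, 80 had a negative log2FC, 42 were DEGs and none was an upregulated DEG. Of all 17266 genes tested in NRF2 cells, 6.81% were upregulated and 5.14% downregulated DEGs, and of the 17048 tested in both populations 47.8% had a positive and 52.2% a negative log2FC there. The difference between the 2 populations, tested as an interaction over all 12 libraries, passed an adjusted p of 0.1 for 85 upregulated and 25 downregulated DEGs, and for 15.1% of all 17674 genes in that model. Of the 85, 40 rose more and 45 rose less in NRF2 cells. DEGs were selected on the GFP libraries that also enter the interaction, which favours smaller responses in NRF2 cells. These counts are therefore a description and cannot be compared with the share over all genes. DDIT4 rose less (1.27 against 1.99, a difference of -0.72, adjusted p = 0.000122), and for SESN2 the difference did not pass (1.69 against 1.72, adjusted p = 0.864). PTGS2, EGR1 and IL1B rose more in NRF2 cells, PTGS2 by 3.11 against 1.16 (adjusted p = 0.000784), EGR1 by 2.67 against 0.91 (adjusted p = 0.000639) and IL1B by 1.96 against 0.76 (adjusted p = 0.000744).

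**Figure D3:**
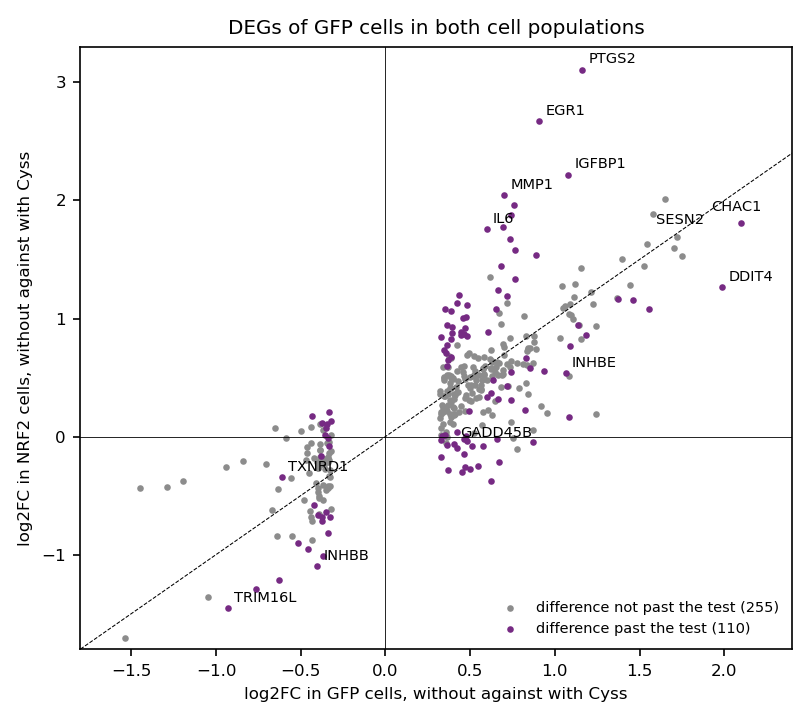
The log2FC without against with Cyss of 365 DEGs of GFP cells, in GFP cells (x) and in NRF2 cells (y), in purple where the interaction passed (110) and grey where it did not (255), with equal values on the dashed line. PTGS2, EGR1, IGFBP1 and MMP1 lie far above the line and DDIT4 and INHBE below it.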

How the data were processed

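Per the labels and the study's methods, poly(A) RNA of 8 h cultures was made into TruSeq libraries and sequenced single end. The authors aligned reads with TopHat2 2.1.0 to hg19 and deposited raw counts per gene from HTSeq 0.11.2, made without regard to strand. The annotation version is not given in the sources used here. Genes of ribosomal RNA and the counters of reads given to no gene, at most 16.4% of reads, were left out here. Counts of the 6 GFP libraries were normalized by TMM and tested with edgeR 4.0.16 (R 4.3.3), as a quasi-likelihood test of medium, over genes whose mean reached 10 normalized counts with or without Cyss. DESeq2, which the study used in another version, served as an alternative, here in version 1.42.0. P-values were adjusted by Benjamini-Hochberg over all genes tested. DEGs had an adjusted p below 0.1 and a log2FC over 0.32 in size. A normalized count is scaled by library size and TMM factor. Gene positions are from GENCODE on hg19, promoters from RefSeq on GRCh38.p14.

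Named genes were, in each direction, the 20 DEGs of largest log2FC with a mean of at least 50 in the higher group and no overlap, the 10 with the largest difference in counts, up to 5 per gene list, and 8 clone-named, LINC or antisense DEGs with a mean of at least 30. Other list members are given by value where their role needs it. The members and gene lists were chosen with earlier results of these data known. The code was tested on simulated data. Alternatives covered the scaling, the filter, both thresholds, the tool, a replicate block, all 12 libraries together and each library left out. Some genes are not reported here.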

Additional observations from a re-analysis of the deposited data

Results flagged for a closer look

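Of 135 genes named by rule in the comparison of GFP cells, 55 differed in their response between NRF2 and GFP cells, as tested by the interaction in edgeR's quasi-likelihood model over all 12 libraries at an adjusted p below 0.1. Over all 17674 genes in that model 2669 passed. The named genes were chosen on the GFP libraries that also enter the interaction, which favours smaller responses in NRF2 cells. The count of 55 is therefore a description and cannot be compared with the count over all genes. For the genes listed below with a smaller rise or fall in NRF2 cells, the part due to this choice was not tested. Values in parentheses are the log2FC in NRF2 cells minus the log2FC in GFP cells.

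The rise was larger in NRF2 cells for 19 upregulated DEGs, mostly signalling and secreted factors: PTGS2 (1.95), IGFBP1 (1.14), EGR1 (1.76), PMAIP1 (0.65), ERRFI1 (0.82), IL1B (1.20), IL8 (1.14), MMP3 (0.93), VEGFA (0.48), MMP1 (1.35), SLC16A6 (1.09), PLAT (0.76), SLC38A1 (0.28), IL6 (1.16), TSLP (0.63), FST (0.40), ADAMTS6 (0.77), MT2A (0.54) and ETV5 (0.41). The rise was smaller, or absent, in NRF2 cells for 19 upregulated DEGs, among them asparagine, serine and glutathione enzymes: CHAC1 (-0.29), DDIT4 (-0.72), ULBP1 (-0.48), PCK2 (-0.31), ASNS (-0.20), PSAT1P3 (-0.32), PSAT1 (-0.20), NUPR1 (-0.32), RP11-326I11.3 (-0.91), INHBE (-0.53), LINC00900 (-0.38), JDP2 (-0.28), SLC1A4 (-0.16), TSC22D3 (-0.60), PHGDH (-0.19), KLF4 (-0.29), AARS (-0.15), SLC3A2 (-0.28) and GADD45B (-0.46). The fall was larger for 11 downregulated DEGs, namely TRIM16L (-0.52), AKR1B10 (-0.53), ZSCAN31 (-0.59), MAP3K14 (-0.38), MRGPRF (-0.50), NQO1 (-0.16), INHBB (-0.69), ORC1 (-0.26), HSPA1B (-0.30), a clone-named gene (-0.65) and IER5L (-0.48). It was smaller for 6, namely TXNRD1 (0.27), SLC18A2 (0.61), SLC1A3 (0.49), TGFBR3 (0.37), SLC5A3 (0.42) and UGDH (0.25). In 5 of the 55 the log2FC had opposite signs in the 2 populations: GADD45B (-0.06 in NRF2 cells against 0.40 in GFP cells), SLC18A2 (0.18 in NRF2 cells against -0.43 in GFP cells), SLC1A3 (0.11 in NRF2 cells against -0.37 in GFP cells), TGFBR3 (0.01 in NRF2 cells against -0.36 in GFP cells) and SLC5A3 (0.07 in NRF2 cells against -0.35 in GFP cells). None of the 5 was a DEG in NRF2 cells, so a reversed response was not shown. The calls of SLC18A2, SLC1A3, TGFBR3 and SLC5A3 in GFP cells were lost in some or all leave-one-out fits, as given above.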

How the results depend on the processing

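The counts of DEGs in GFP cells moved with the fold threshold, the filter on low counts and single libraries. With no fold threshold 543 genes were upregulated and 490 downregulated, and with no filter on low counts 185 were downregulated. Leaving out each library in turn gave 216 to 306 upregulated and 55 to 133 downregulated DEGs, the lowest downregulated counts being 55 without replicate 1 with Cyss and 57 without replicate 2 without Cyss. Genes whose response differed between NRF2 and GFP cells numbered 1395 to 3681 over left-out libraries, with 1395 without GFP replicate 2 without Cyss, 1717 without GFP replicate 1 with Cyss and 1554 without NRF2 replicate 3 with Cyss. The DESeq2 Wald test gave 217 upregulated and 69 downregulated DEGs, and TMM factors from all genes, an alternative chosen after seeing the data, gave 267 and 126. With the replicate number as a block there were 280 and 106, and 3173 genes differed between the populations. The main test had no block, since the study's methods name no pairing of libraries. Deviations of same-numbered libraries from their group means correlated at 0.04, 0.16 and -0.05. The replicate block ended the call of 2 of the 135 named genes, CHORDC1 and a clone-named gene. None of the 135 reversed under any alternative, and 130 of 810 values over left-out libraries and 49 of 1485 under other settings missed the thresholds. The medians of the lists of serine and folate genes, glycolysis and lactate, cell death, mesenchymal markers and ERBB2 amplicon markers, all near 0, changed sign under scaling by library size only and under TMM factors from all genes. Unequal depth between the media limits small changes in genes of few reads.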

Other observations

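Genes linked to the interferon response appeared among the upregulated DEGs although none of the 25 listed interferon-stimulated genes was one. They were singled out after their values were seen. XAF1, an antagonist of apoptosis inhibitors, had 244, 234 and 275 normalized counts with Cyss and 479.6, 433 and 344 without (log2FC 0.74 ± 0.11 SE, adjusted p = 0.00175). SLFN5 (log2FC 0.65 ± 0.08 SE, adjusted p = 0.000328), APOL6 (log2FC 0.60 ± 0.0678 SE, adjusted p = 0.000147) and the DNA sensor IFI16 (log2FC 0.37 ± 0.0406 SE, adjusted p = 0.000119) rose as well. All 4 were DEGs whichever library was left out, and in none did the media overlap.

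The zinc finger genes ZNF419 and ZNF773, also chosen after their values were seen, are neighbours on chromosome 19. ZNF419 had 251, 264 and 279 normalized counts with Cyss and 464, 509 and 447 without (log2FC 0.84 ± 0.0747 SE, adjusted p = 1.45e-05), and ZNF773 had 349.5, 332 and 369 normalized counts with Cyss and 537, 593 and 569 without (log2FC 0.69 ± 0.0677 SE, adjusted p = 3.64e-05). Both were higher in every deprived library.

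In lists not described above, 1 of 31 autophagy and lysosome genes rose and none fell, 1 of 20 hypoxia-induced genes rose and none fell, and of 68 ion channels 1 rose and 1 fell. TFEB, the regulator of lysosomal genes, was the autophagy gene that rose (log2FC 0.39 ± 0.112 SE, adjusted p = 0.0832), and its call was lost at 0.39 without replicate 1 with Cyss, 0.42 without replicate 2 with Cyss, 0.35 without replicate 3 with Cyss, 0.38 without replicate 2 without Cyss and 0.28 without replicate 3 without Cyss.

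Reads of RP11-146N23.1 came almost wholly from 1 library. It had no reads with Cyss and 0, 1018 and 1.17 normalized counts without, and it was not a DEG.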
